A study of Mus musculus with 11 samples.

Results

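The smooth muscle contractile genes are 10 genes that encode the actin, myosin and associated proteins of the smooth muscle contractile apparatus. They were chosen by name as Acta2, Tagln, Cnn1, Myh11, Actg2, Myl9, Tpm2, Lmod1, Des and Synpo2, and all 10 were found among the 31518 genes listed for mouse embryonic stem cells (mESCs) and the 29450 genes listed for mouse embryonic fibroblasts (MEFs). Poly(A)+ RNA was sequenced from 11 libraries, and each group is given here by its labelled genotype. The mESCs, derived from blastocysts, comprised 2 Atxn7l3+/+ (WT) and 3 Atxn7l3-/- libraries. They had been grown on feeder cells before the final passages without them. The MEFs, grown from embryos collected at E10.5 without the head and the gastrointestinal tract, comprised 3 WT and 3 Atxn7l3-/- libraries. All mice shared a mixed DBA/2 and C57BL/6 background, and the null allele was constitutive, so that every cell of a mutant embryo or line carried it. ATXN7L3 is an adaptor that activates the ubiquitin proteases which remove ubiquitin from histone H2B.

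The contractile apparatus of smooth muscle slides actin filaments along smooth muscle myosin. Many of its genes are switched on by serum response factor (SRF), which binds a short A/T-rich element called the CArG box, together with coactivators of the myocardin family. The same genes are also expressed by myofibroblasts, the contractile form of cultured fibroblasts, where ACTA2 is the usual marker. In these bulk libraries, fewer expressing cells and less RNA per cell cannot be told apart.

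Library totals ranged from 34515342 to 49602605 counts. Levels are given as CPM, the counts of a gene scaled to a common library size, normalized by the trimmed mean of M-values (TMM) over all 11 libraries. Atxn7l3 itself stood at 197 and 203 CPM in the WT mESCs and at 3.34, 1.61 and 0.833 CPM in the Atxn7l3-/- mESCs. In MEFs it stood at 86.6, 117 and 104 CPM in the WT libraries and at 56.5, 55.5 and 73.3 CPM in the libraries labelled Atxn7l3-/-. The targeted transcript was therefore nearly lost in the mESCs, but the MEF libraries labelled Atxn7l3-/- kept a mean of 60.3% of the WT level (log2 fold change −0.74, standard error 0.21, adjusted p = 0.0715). These counts alone do not establish the genotype of those MEFs, and they are named by their label throughout. The paper reports undetectable ATXN7L3 protein and raised ubiquitinated histone H2B in its Atxn7l3-/- MEFs, whose embryos were genotyped from the yolk sac. The X-linked Xist was at 336 CPM in WT MEF replicate 3 and at or under 0.743 CPM in the other MEF libraries. The Y-linked Ddx3y was at 2.96 and 0.793 CPM in Atxn7l3-/- mESC replicates 1 and 2 and at or above 80.5 CPM in the other mESC libraries, so the sex of the cells differed among the libraries. Its part in the results was not tested.

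Promoter sequence was examined because the members share SRF as a known regulator. RefSeq windows (GRCm38.p6), taken as 250 bases before to 50 bases after a start site, were matched for 7 of the 10 members. A CArG box, a run of CC, 6 bases of A or T and GG, was present in 1 of the 7, Myl9, and in 1.629% of 32851 windows of the same length. Allowing 1 of the 6 middle bases to be G or C, with CC and GG kept, found sites in Acta2 and Myl9, against 8.499% of all windows. Substitutions in the outer CC and GG were not searched. The windows of these genes are shown with the sites in capitals, Acta2 from chr19:34255324-34255623 on the minus strand and Myl9 from chr2:156775214-156775513 on the plus strand.
Acta2: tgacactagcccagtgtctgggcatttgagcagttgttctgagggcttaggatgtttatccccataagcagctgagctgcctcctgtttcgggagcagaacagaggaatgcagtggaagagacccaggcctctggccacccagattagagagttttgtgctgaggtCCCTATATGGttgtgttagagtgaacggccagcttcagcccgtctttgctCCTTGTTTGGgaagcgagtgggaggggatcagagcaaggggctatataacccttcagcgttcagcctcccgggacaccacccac
Myl9: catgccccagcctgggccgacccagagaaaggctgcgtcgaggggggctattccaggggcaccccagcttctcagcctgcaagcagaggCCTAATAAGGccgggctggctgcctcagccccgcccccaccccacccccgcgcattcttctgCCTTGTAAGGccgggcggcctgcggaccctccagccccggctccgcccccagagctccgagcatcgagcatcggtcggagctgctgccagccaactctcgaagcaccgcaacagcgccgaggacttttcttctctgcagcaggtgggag
In Acta2, the sites with 1 substitution lay 84 and 34 bases before the start site taken for the window. In Myl9, the exact CArG box lay 161 bases before that of its window and the substituted site 99 bases before it. The deposited annotation places the 5' end of Acta2 at 34255336 and that of Myl9 at 156775420. Those ends differ from the start sites taken for the windows, so the distances hold only within the windows. The M-CAT motif CATTCC, searched on both strands, was present in Acta2 and Lmod1, and in 14.66% of all windows. The windows of Cnn1, Tpm2, Des and Synpo2 held none of the motifs searched. A match describes the letters of the window and does not show binding.

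Together, the contractile genes took 1.02%, 1.156% and 1.62% of all counts in WT MEFs. In the MEFs labelled Atxn7l3-/- they took 0.193%, 0.120% and 0.558%. In mESCs their share was 0.00736% and 0.0120% in the WT libraries and 0.0174%, 0.0334% and 0.0255% in the Atxn7l3-/- libraries. The direction of the difference between genotypes was therefore opposite in the 2 cell types.

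Levels were compared between genes only after division by transcript length, with the deposited normalized reads per kb, which were scaled separately for each cell type. The length was the median over a gene's transcripts, 503 bases for Myl9, 744 for Actg2 and 835 for Des. The order of the genes depends on this choice, and other lengths were not tried. In WT MEFs, Acta2 (mean 145294) and Tagln (142714) stood highest and their ranges overlapped. Myl9 followed at 84003 and did not overlap with Tagln above it or with Tpm2 below it. The range of Actg2 (24346) overlapped with those of Tpm2 (26539) just above it and Cnn1 (22253) just below it, and Cnn1 did not overlap with Lmod1. Lmod1 (1641), Des (907), Myh11 (447) and Synpo2 (167) were the lowest. For scale, the non-muscle actin gene Actb had a mean of 130343 on the same scale. In WT mESCs the order began with Myl9 (967) and Tpm2 (825), whose ranges overlapped, and ended with Synpo2 (13.0) and Myh11 (7.91).

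Between the WT cell types, 9 of the 10 contractile genes were higher in MEFs at an adjusted p of 0.05 or less, where 26.8% of all 19326 genes tested were higher. The fold differences ran from 14.3 for Synpo2 to 402 for Acta2. Desmin, the intermediate filament protein of muscle, was the exception. Des stood at 11.1 and 12.6 CPM in WT mESCs and at 23.3, 24.9 and 12.01 CPM in WT MEFs, and it did not pass the test (log2 fold change 0.76 with a standard error of 0.39, adjusted p = 0.121).

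The main question in MEFs was whether these genes differed between the genotypes. All 10 fitted log2 fold changes were negative, with a median of −2.52 against −0.056 over all genes tested. Only Myh11 and Synpo2 passed an adjusted p of 0.05, where 4.39% of 15958 genes fell. In 9 of the 10 members, all but Des, every library labelled Atxn7l3-/- was below every WT library, a pattern shown by 19.8% of all genes tested. With the replicate number as a block, 8 of the 10 fell, where 8.49% of all genes did. The block is given here because deviations of same-numbered MEF libraries correlated across genes, though weakly for replicate 2 (r of 0.473, 0.161 and 0.240). WT replicate 2 and labelled replicate 3 had an r of 0.0516. These correlations came from the same data as the calls, so they are not separate evidence for the pairing. The labels give only the replicate number and do not say what same-numbered libraries share.

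**Figure D1:**
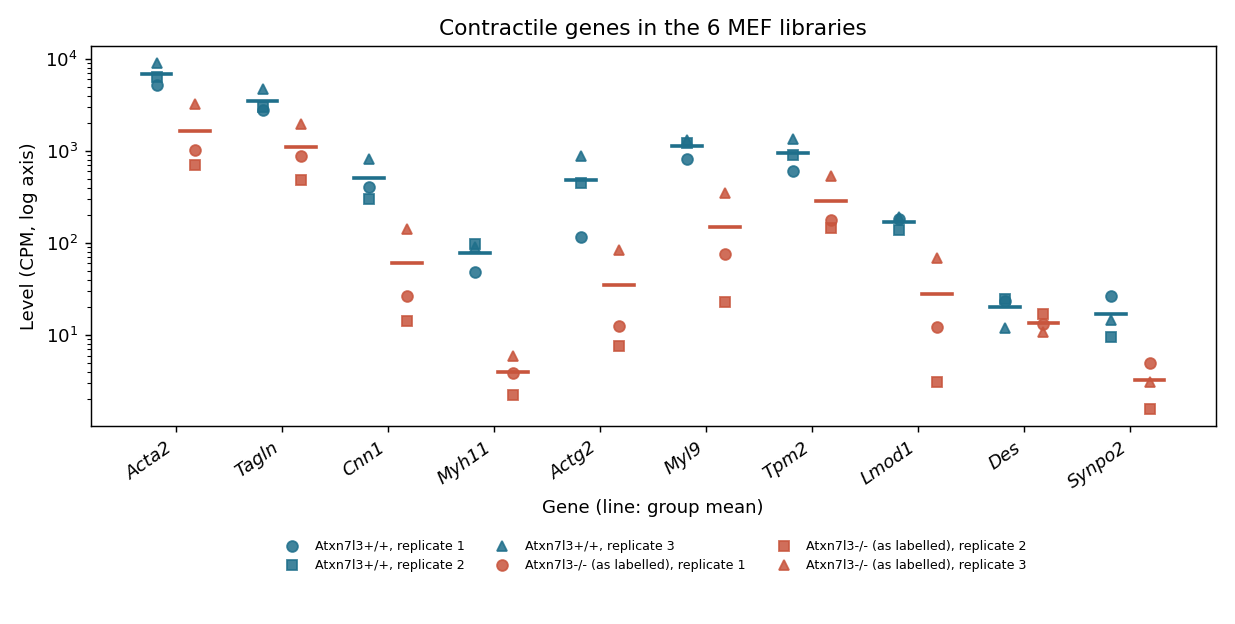
Level of each contractile gene in CPM (log axis) in the 6 MEF libraries, with 1 symbol per replicate number, colour for the labelled genotype and a line at the group mean. The groups do not overlap for any gene but Des, and replicate 3 is the highest of the libraries labelled Atxn7l3-/- for 8 of the 10 genes.

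The means of the smooth muscle motor and its light chain were at 5.09% and 13.3% of WT. Myh11, the smooth muscle myosin heavy chain, stood at 49.0, 97.0 and 90.1 CPM in WT MEFs and at 3.90, 2.25 and 5.87 CPM in the MEFs labelled Atxn7l3-/-. The 3 labelled libraries lay close together and far below the WT range. Myh11 fell by 4.30 on the log2 scale (standard error 0.47, 19.7-fold, adjusted p = 0.00933), and it was called in every leave-one-out fit (highest adjusted p 0.0446). Myl9, the regulatory light chain of smooth muscle myosin, stood at 814, 1215 and 1333 CPM in WT MEFs and at 75.3, 22.7 and 348 CPM in the labelled libraries. Its labelled libraries differed among themselves by 15.3-fold, and the log2 fold change of −2.90 (standard error 0.95) had an adjusted p of 0.0933, or 0.0496 with the block.

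Both smooth muscle actins were lower in every library labelled Atxn7l3-/- than in any WT library. Acta2, smooth muscle alpha-actin, stood at 5266, 6320 and 8991 CPM in WT MEFs and at 1015, 711 and 3215 CPM in the labelled libraries. The mean of the labelled libraries was 24.0% of that of WT, with replicate 3 well above the other two. The log2 fold change was −2.05 (standard error 0.65, adjusted p = 0.0880), and −2.36 with the block (standard error 0.47, adjusted p = 0.0376). Actg2, smooth muscle gamma-actin, stood at 117, 450 and 876 CPM in WT MEFs and at 12.5, 7.65 and 84.6 CPM in the labelled libraries. It varied 7.51-fold within WT, and its log2 fold change of −3.76 (standard error 1.156) had an adjusted p of 0.0825, or 0.0250 with the block. The actin genes are closely related in sequence. Reads that match more than 1 of Acta2, Actg2 and their striated relatives may have been lost or misplaced, which was not tested. Of the non-muscle actins, Actg1 stood at 4.32 to 5.96 CPM over the MEF libraries and Actb at 1992 to 3901 CPM. Whether lost reads had a part in this was not tested.

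The proteins that sit along the actin filament showed the same order of groups. Tagln, the actin-bundling protein transgelin, stood at 2806, 3007 and 4773 CPM in WT MEFs and at 878, 478 and 1973 CPM in the labelled libraries. Its log2 fold change was −1.67 (standard error 0.57, adjusted p = 0.103), or −1.88 with the block (adjusted p = 0.0421). Cnn1, the calponin that restrains actomyosin activity, stood at 411, 300 and 824 CPM in WT MEFs and at 26.9, 14.1 and 142 CPM in the labelled libraries. The mean of the labelled libraries was 11.9% of that of WT (log2 fold change −3.05, standard error 0.93, adjusted p = 0.0814, or 0.0190 with the block). Tpm2, a tropomyosin that lies in the groove of the actin filament, stood at 605, 910 and 1345 CPM in WT MEFs and at 176, 147 and 541 CPM in the labelled libraries. Its log2 fold change was −1.72 (standard error 0.59, adjusted p = 0.103, or 0.0314 with the block). In Tagln, Cnn1 and Tpm2 the highest library of each genotype was replicate 3.

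Lmod1 and Synpo2 encode actin filament regulators and stood lower. Lmod1, a leiomodin that starts new actin filaments, stood at 183, 137 and 194 CPM in WT MEFs and at 12.3, 3.12 and 68.2 CPM in the labelled libraries. It varied 21.8-fold among the labelled libraries and did not pass the test in either fit (log2 fold change −2.61, standard error 1.01, adjusted p = 0.132, or 0.0532 with the block). Synpo2, an actin-binding protein of muscle, stood at 26.8, 9.63 and 14.5 CPM in WT MEFs and at 5.02, 1.59 and 3.11 CPM in the labelled libraries. It fell by 2.42 on the log2 scale (standard error 0.58, adjusted p = 0.0494, or 0.0183 with the block), and leaving out any 1 library raised the adjusted p to between 0.0570 and 0.133. Des stood at 23.3, 24.9 and 12.01 CPM in WT MEFs and at 13.1, 17.0 and 10.7 CPM in the labelled libraries, and the groups overlapped (log2 fold change −0.58, standard error 0.36, adjusted p = 0.301).

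Replicate 3 of the MEFs labelled Atxn7l3-/- set how many members passed. Without it, 8 of the 10 members were called, where 6.26% of all genes tested fell, and without any 1 of the other MEF libraries only 1 was. Calls over all genes moved as well, with 1049 genes that fell without this library and 77 to 395 without any 1 of the others. This library was also the highest of its group for Atxn7l3, at 73.3 CPM.

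Related genes outside the smooth muscle set were mostly lower too. Of 20 tested genes for non-muscle and striated counterparts, 18 had a negative log2 fold change, with a median of −1.07, and 3 fell and none rose by the test. Acta1, the skeletal muscle actin, fell by 4.72 (adjusted p = 0.0234), Synpo by 1.26 (adjusted p = 0.0416) and Cnn3 by 1.15 (adjusted p = 0.0409) on the log2 scale. The calponin gene Cnn2 had a log2 fold change of −1.88 (adjusted p = 0.0840, or 0.0407 with the block). Vim (−1.21, standard error 0.45), Myl6 (−0.99, standard error 0.31) and Myh9 (−0.98, standard error 0.61) did not pass the test. Neither did Actb (−0.29, standard error 0.36), Tpm4 (−0.10, standard error 0.26) and Tagln2 (0.16, standard error 0.39), which were nearer to 0. Whether a member and its counterpart differed in response was not tested.

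**Figure D2:**
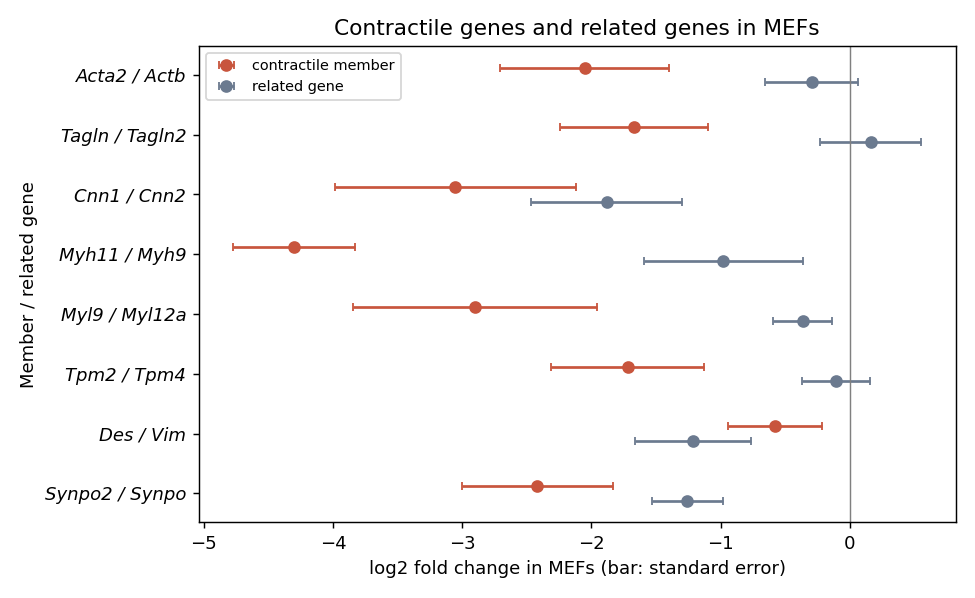
Log2 fold change in MEFs labelled Atxn7l3-/- over WT, with standard errors, for 8 contractile genes and a related gene of each. Myh11 lies at −4.30 and Acta2 at −2.05, and Actb at −0.29 and Tagln2 at 0.16. Not all related genes lie near 0. Cnn2 lies at −1.88 beside Cnn1 at −3.05, and Vim at −1.21 lies below its member Des at −0.58.

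The wider smooth muscle programme was measured by 26 tested genes, of which 5 fell and none rose in the MEFs labelled Atxn7l3-/-, with a median log2 fold change of −0.86. The 4 with the largest change were Ppp1r14a, an inhibitor of myosin phosphatase, which fell by 4.68, Itga8, an integrin subunit of smooth muscle, which fell by 4.44, Mustn1, which fell by 4.29, and Hspb6, a small heat shock protein of muscle, which fell by 3.01 on the log2 scale. Of 20 tested genes in the list for SRF and its regulators, none fell and Gata6, a transcription factor, rose by 4.86 (adjusted p = 0.00878). This list also held the calponin gene Cnn2 and Jph2, so it is wider than its name. Srf stood at 96.5, 105 and 142 CPM in WT MEFs and at 65.8, 74.0 and 89.5 CPM in the labelled libraries (log2 fold change −0.59, standard error 0.23, adjusted p = 0.134). Myocd, which encodes myocardin, stood at 3.24, 0.719 and 6.83 CPM in WT MEFs and at 0.292, 0.128 and 0.629 CPM in the labelled libraries (log2 fold change −3.37, standard error 0.98, adjusted p = 0.0730, or 0.0235 with the block). Of 15 tested immediate-early and actin-feedback targets of SRF, none was called.

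Markers of other cell types moved with the labelled genotype in MEFs. Of 9 mesothelial markers, 7 rose, and their summed level was 49.8 to 92.8 CPM in WT MEFs and 6933 to 10971 CPM in the labelled libraries. The mesothelial gene Upk1b, for example, was at or under 8.62 CPM in WT and at or above 1863 CPM in the labelled libraries. Of 7 tested pericyte markers, which belong to contractile cells of small vessels, Rgs5 fell by 5.44 (adjusted p = 0.0308) and none rose. All 7 had a negative log2 fold change, with a median of −2.89. Their summed level was 470 to 794 CPM in WT MEFs and 12.6 to 390 CPM in the labelled libraries, with replicate 3 the highest of these. None of 13 tested fibroblast markers was called, and their sums overlapped, at 18000 to 57309 CPM in WT and 35218 to 50438 CPM in the labelled libraries. The sum does not show single markers, of which 9 had a negative and 4 a positive log2 fold change (median −0.86). Postn was at 402 to 4382 CPM in WT and 2.43 to 174 CPM in the labelled libraries. Dcn was at 25.3 to 382 CPM in WT and 711 to 2445 CPM in the labelled libraries. None of 6 tested endothelial markers was called, and their sum was 6.19 to 77.9 CPM in WT and 4.73 to 21.9 CPM in the labelled libraries. Most of the highest sum was Kdr, at 75.6 CPM in WT replicate 1, while the defining marker Cdh5 was at or under 0.342 CPM in all MEF libraries. Of 11 tested skeletal and cardiac muscle genes, 5 fell and none rose by the test, and 9 had a negative and 2 a positive log2 fold change. Myh7 fell by 6.56, Mymk by 5.66, Mylpf by 3.67 and Ryr2 by 2.65 on the log2 scale. The summed level of this list overlapped, at 40.2 to 119 CPM in WT and 21.8 to 225 CPM in the labelled libraries. Myl7 was at 177 CPM in labelled replicate 2, which had the highest sum. The part of these cell types in the contractile gene result was not tested.

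In mESCs no contractile gene exceeded 123 CPM in any library, and 9 of 10 fitted log2 fold changes were positive. No member passed the adjusted threshold in edgeR's quasi-likelihood test, where 3.08% of 17800 genes rose. Unadjusted, 4 members had a p under 0.05, and DESeq2 called 3 of the 10, where it called 9.3% of all genes tested as higher. In 6 members every Atxn7l3-/- library was above both WT libraries, as in 24.6% of all genes tested. The 4 members with the larger fold changes were Acta2, Tagln, Cnn1 and Actg2. With the replicate block these 4 were called, where 4.0% of all genes rose, although same-numbered mESC libraries did not deviate together. Atxn7l3-/- replicate 3 had no WT library of its number, so the block fit took the genotype effect from replicates 1 and 2 only.

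Acta2 stood at 2.81 and 31.3 CPM in the WT mESCs and at 60.2, 123 and 70.4 CPM in the Atxn7l3-/- mESCs (log2 fold change 2.36, standard error 0.86, adjusted p = 0.119). Tagln stood at 2.67 and 17.2 CPM in the WT mESCs and at 30.6, 62.5 and 38.8 CPM in the Atxn7l3-/- mESCs (log2 fold change 2.20, standard error 0.71, adjusted p = 0.0937). Cnn1 stood at 0.515 and 2.88 CPM in the WT mESCs and at 6.81, 11.9 and 9.10 CPM in the Atxn7l3-/- mESCs (log2 fold change 2.502, standard error 0.71, adjusted p = 0.0725). The WT libraries differed from each other by 11.2-fold for Acta2, 6.45-fold for Tagln and 5.60-fold for Cnn1, WT replicate 1 being the lower each time. Actg2 stood at 0.420 and 3.07 CPM in the WT mESCs and at 5.68, 13.5 and 6.17 CPM in the Atxn7l3-/- mESCs (log2 fold change 2.33, standard error 0.83, adjusted p = 0.115). Without WT replicate 1, the log2 fold change of Acta2 was 1.48, and without WT replicate 2 it was 4.93. The other members had log2 fold changes between −0.08 (Synpo2) and 0.78 (Myh11).

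**Figure D3:**
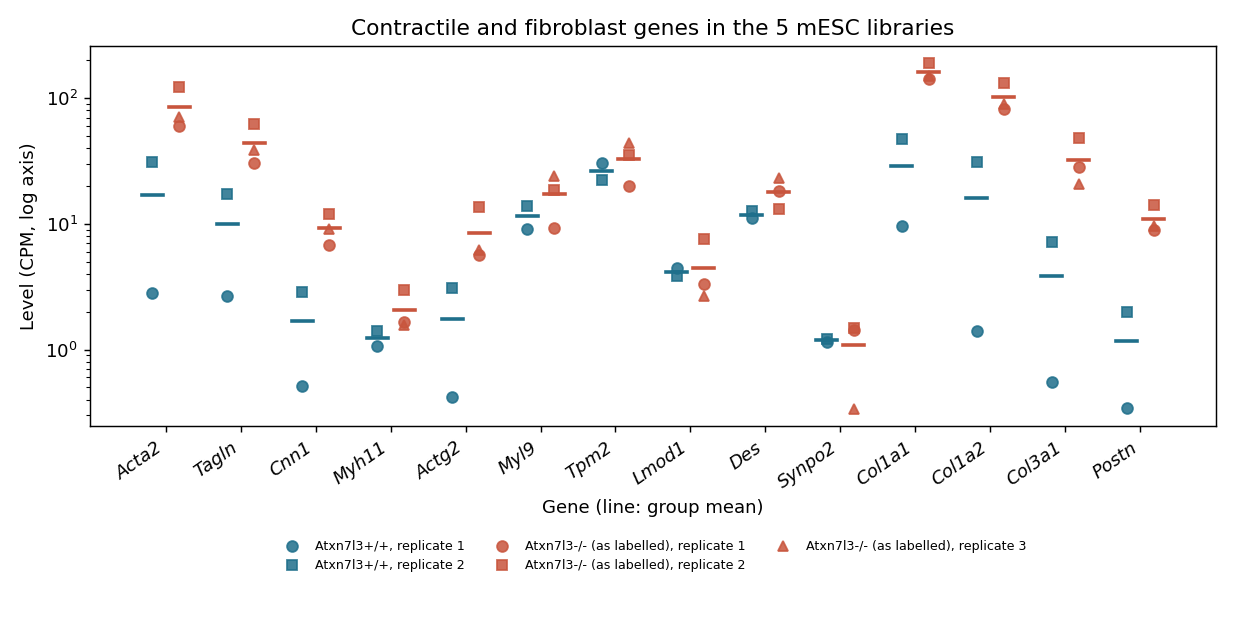
Level in CPM (log axis) of the 10 contractile genes and 4 fibroblast genes in the 5 mESC libraries, with 1 symbol per replicate number, colour for the labelled genotype and a line at the group mean. Acta2, Tagln, Cnn1 and Actg2 order the libraries as Col1a1, Col1a2 and Postn do, from WT replicate 1 at the bottom to Atxn7l3-/- replicate 2 at the top, and Col3a1 does not.

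Fibroblast genes moved with these members. Col1a2, a collagen chain of fibroblasts, stood at 1.39 and 31.0 CPM in the WT mESCs and at 82.7, 132 and 89.9 CPM in the Atxn7l3-/- mESCs. Acta2, Tagln, Cnn1, Actg2, Col1a1, Col1a2 and Postn all placed the 5 libraries in the same order, from WT replicate 1 through WT replicate 2 and Atxn7l3-/- replicates 1 and 3 to replicate 2. Of 10 tested fibroblast markers, 3 rose (Postn by 3.28, Col1a1 by 2.54 and Fbln1 by 1.62 on the log2 scale), and the summed list was at 1398 and 2449 CPM in WT and 3136 to 5284 CPM in the Atxn7l3-/- libraries. Of the 13 fibroblast markers, Col1a1, Col1a2 and Postn shared that order and the other 10 did not. Col3a1 was lowest of the Atxn7l3-/- libraries in replicate 3, and Fbln1, Fn1 and the summed list were highest there. The fibroblast marker Dcn was at or under 0.364 CPM in all mESC libraries. The labels describe growth on feeder cells before RNA was taken, and the part of remaining feeder cells in the result was not tested.

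The genotype effect in MEFs was then set against that in mESCs in 1 fit of the 11 libraries. The difference was negative for all 10 members and passed the test for 5 of them, Acta2, Tagln, Cnn1, Myh11 and Actg2, where 5.27% of 19326 genes had a called negative difference. For Myh11 the log2 fold change was −4.30 in MEFs and 0.78 in mESCs, and the difference was −5.04 (standard error 0.67, adjusted p = 0.00384). The 0.78 did not pass the quasi-likelihood test in mESCs (adjusted p = 0.332). Myh11 was low there, at 1.07 and 1.40 CPM in WT and 1.65, 2.98 and 1.58 CPM in the Atxn7l3-/- mESCs. For Actg2 the difference was −6.07 (standard error 1.64, adjusted p = 0.0397) and for Cnn1 it was −5.52 (standard error 1.33, adjusted p = 0.0280). The remaining 5 members had adjusted p-values between 0.0739 and 0.168. Leaving out 1 library changed the number called to between 1 and 8, and the difference of Myh11 was called each time. The levels of the fibroblast genes in mESCs and the level of Atxn7l3 in MEFs, given above, apply to this difference too.

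**Figure D4:**
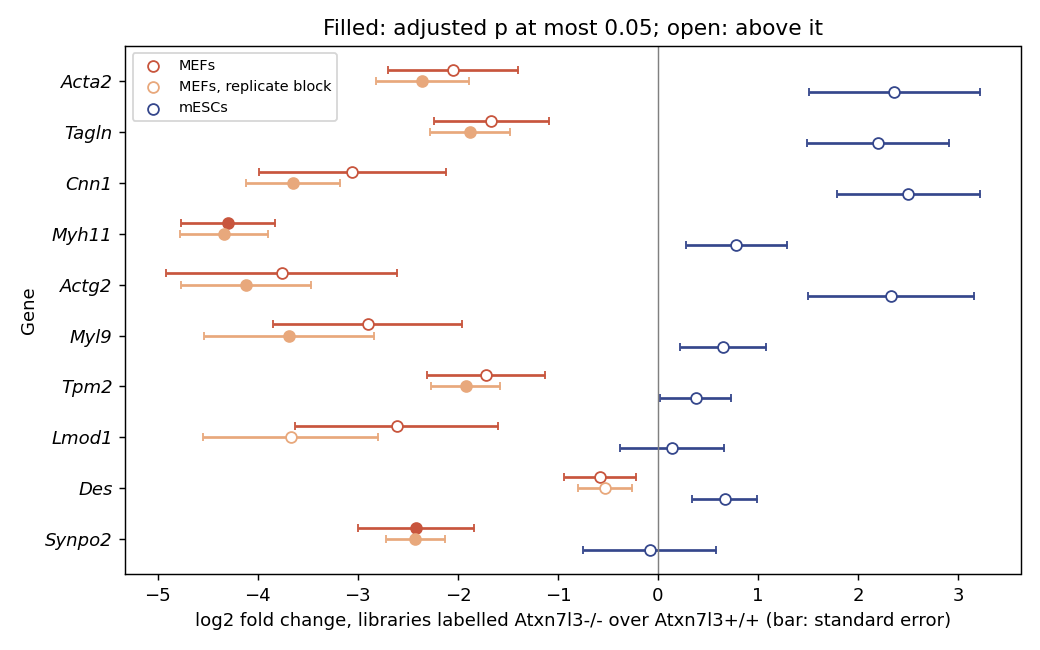
Log2 fold change of each contractile gene with its standard error in MEFs without and with the replicate block and in mESCs, filled where the adjusted p is at most 0.05. The MEF values run from −4.30 (Myh11) to −0.58 (Des), and the mESC values from −0.08 (Synpo2) to 2.502 (Cnn1).

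Genes whose levels followed the most abundant members were sought over the 6 MEF libraries, by the root mean square difference of log2 CPM centred on each gene's mean. Among 15767 other genes, those most like Acta2 were Col5a1 (0.159), a collagen chain, Rftn2 (0.193) and the calponin gene Cnn2 (0.211). Those most like Tagln were Plppr2 (0.163), Fbxw18 (0.165) and Runx1 (0.167), a transcription factor. Fbxw18 was at or under 0.805 CPM in every MEF library. Among the members themselves, Tpm2 was the closest to both, at 0.263 from Acta2 and 0.238 from Tagln, and Des was at 1.36 and 1.18.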

How the data were processed

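RNA was sequenced from 5 mESC and 6 MEF libraries. The authors prepared stranded poly(A)+ libraries. The submitters' processing notes name cutadapt 1.10, STAR 2.5.3a, HTSeq 0.6.1p1 and DESeq2 1.16.1, with build mm10. They deposited raw read counts per gene, and a normalized signal, the counts divided by size factors and by the median transcript length in kb. A further 11 normalized columns, 1 column without a header name, and the authors' fold changes and p-values were not used. The paper excluded 1 WT mESC dataset, not analysed here.

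Raw counts were filtered with filterByExpr, normalized by TMM and tested with the quasi-likelihood test of edgeR 4.0.16 (R 4.3.3), separately in each cell type and over all 11 libraries for the comparisons between cell types, with Benjamini-Hochberg adjustment over all genes tested (threshold 0.05). Each line came from its own embryo. Standard errors were derived from the F statistic. In MEFs, deviations from the group means correlated between same-numbered libraries (r of 0.473, 0.161 and 0.240 across genes), so the pairing by replicate number is shown as a block. No libraries were duplicates. The fits were tested on simulated data. Alternatives are in the closing section, with DESeq2 1.42.0 among them. Gene lists, members and tests were chosen with earlier results of these data known. The genes named are the members, Atxn7l3, up to 4 called genes with the largest change in each other list, defining markers, and the 3 genes most like Acta2 and Tagln. Regulators, related genes and fibroblast genes with values beyond that rule, the CArG box with 1 substitution and the M-CAT motif were chosen after their values or the data were seen. Tables and figures were made with Python 3.11.15, pandas 2.3.3, numpy 2.4.6 and matplotlib 3.10.9.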

Additional observations from a re-analysis of the deposited data

Results flagged for a closer look

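The effect of the labelled genotype differed between MEFs and mESCs for 5 contractile genes, by the interaction term of edgeR's quasi-likelihood test over all 11 libraries. The effect in MEFs minus that in mESCs was −4.37 on the log2 scale for Acta2 (adjusted p = 0.0431), −3.81 for Tagln (adjusted p = 0.0388), −5.52 for Cnn1 (adjusted p = 0.0280), −5.04 for Myh11 (adjusted p = 0.00384) and −6.07 for Actg2 (adjusted p = 0.0397). Groups held 2 or 3 libraries, too few to test single libraries as outliers.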

How the results depend on the processing

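All 10 members kept a negative log2 fold change in MEFs under every alternative run. The number called, 2 of 10, was 4 without the filter on low counts, 1 with 10 counts required in every library and 8 with DESeq2 (Lmod1 had no adjusted p). It was 8 with the replicate block, 6 in 1 fit of the 11 libraries and 7 with GC correction and the replicate block. When each library was left out it was 1 to 8, the 8 without replicate 3 of the MEFs labelled Atxn7l3-/-. The genes that fell over all genes tested moved too, from 701 of 15958. They were 987 of 29450 without the filter, 332 of 13167 with 10 counts required and 2343 of 18986 with DESeq2. With the block they were 1355 of 15958, and with GC correction and the block 959 of 15958. In 1 fit of the 11 libraries they were 2056 of 19326, and 77 to 1049 genes fell when each library was left out. In mESCs, the genes that rose were 548 of 17800 in the main fit, 1390 of 31107 without the filter and 1714 of 18437 with DESeq2. With the block they were 712 of 17800, and with GC correction and the block 571 of 17800. The number of members called there, 0 of 10, became 4 without the filter, 3 with DESeq2, 4 with the replicate block and 4 with GC correction and the replicate block. It was 0 when each library was left out, but the fits without either WT library called no gene of any kind and the fit without Atxn7l3-/- replicate 1 called 0 higher and 3 lower, so a 0 in these 3 fits says nothing of stability. Same-numbered mESC libraries did not deviate together (r of 0.00777 and −0.172). The 5 members with a called difference between cell types became 1 to 8 when each library was left out, and the 9 members higher in WT MEFs became 9 to 10. Signs turned only in mESCs, for members that were never called there, namely Tpm2 (−0.10 with GC correction and the replicate block), Lmod1 (−0.41 to 0.41 over the fits without 1 library) and Synpo2 (0.34 with the replicate block, 0.34 with GC correction and the replicate block, −0.35 to 0.34 over the fits without 1 library). The cause was not tested. The GC corrections were chosen after seeing the data. Upper-quartile scaling moved the median of all genes in MEFs from −0.056 to −0.167.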
